A study of Saccharomyces cerevisiae with 12 samples.

Results

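The genes of the small (40S) subunit of the cytosolic ribosome of budding yeast, Saccharomyces cerevisiae, were taken as the RPS0 to RPS31 family and ASC1, by systematic name. The list held 57 genes, of which 55 were measured among 6100 open reading frames, and RPS10B and RPS16A are not analysed here. Of the 55 members, 9 are encoded by a single gene and 46 belong to proteins that yeast encodes with a pair of near-identical genes. Two-colour spotted arrays set the RNA of 1 culture sample each against a common reference RNA whose source the labels do not give. There were 6 arrays of a strain whose labels read delUSV1 (YPL230W, a zinc finger gene) at 0, 2, 5, 7 and 9 hours and 1 day of a stationary phase course, and 6 of wild type (DBY8778) at 0, 3, 5, 7 and 9 hours and 1 day. Each strain and time point had 1 array, and the labels mention neither a second culture nor the event from which the hours were counted. P-values therefore set a change against the scatter over time points and strains, not against the spread between cultures.

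The small subunit binds messenger RNA, scans it for the start codon and reads codons in its decoding centre. Its proteins are made in equal numbers with those of the large subunit, and in growing yeast their genes are among the most heavily transcribed. In yeast, transcription of these genes depends on Rap1, Fhl1, Ifh1 and Sfp1 and is governed by nutrients through the TOR and protein kinase A pathways. Repression of these genes on starvation is a well-known part of the yeast stress response.

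Values are log2 ratios to the reference RNA, centred to an array median of 0, so that a difference of 1 is a 2-fold change. Which RNA is on top of the ratio is unstated, and sample over reference is likely because USV1 had the lower ratio in the deletion at each of the 5 shared times. In the deletion USV1 read -1.0, -2.46, -1.40, 1.14, -0.98 and -0.29 from 0 hours to 1 day, against -0.57, 0.50, 0.28, 4.40, 3.94 and 2.59 in wild type. That choice of direction means that USV1 does not check the labels here. A ratio to the reference depends on how much of a gene's RNA the reference holds, so members are compared with each other by their change. Bulk RNA and array centring cannot tell fewer transcripts of these genes from more of all others. Values of paralogous genes may also include each other's transcripts, which spotted probes can bind.

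The family moved as a block from near the array median to the lowest few percent of all genes in both strains. The 6 deletion arrays, in order of time, had family medians of 0.17, 0.335, -3.49, -2.99, -2.33 and -2.70. The 6 wild-type arrays had medians of 0.30, 0.41, 0.12, -3.51, -2.73 and -2.18. The drop thus lay between 2 and 5 hours in the deletion and between 5 and 7 hours in wild type. After it, all 55 members were below 0 on each of the 4 deletion arrays and each of the 3 wild-type arrays, and between 37 and 48 of them lay below the 5th percentile of all genes.

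**Figure D1:**
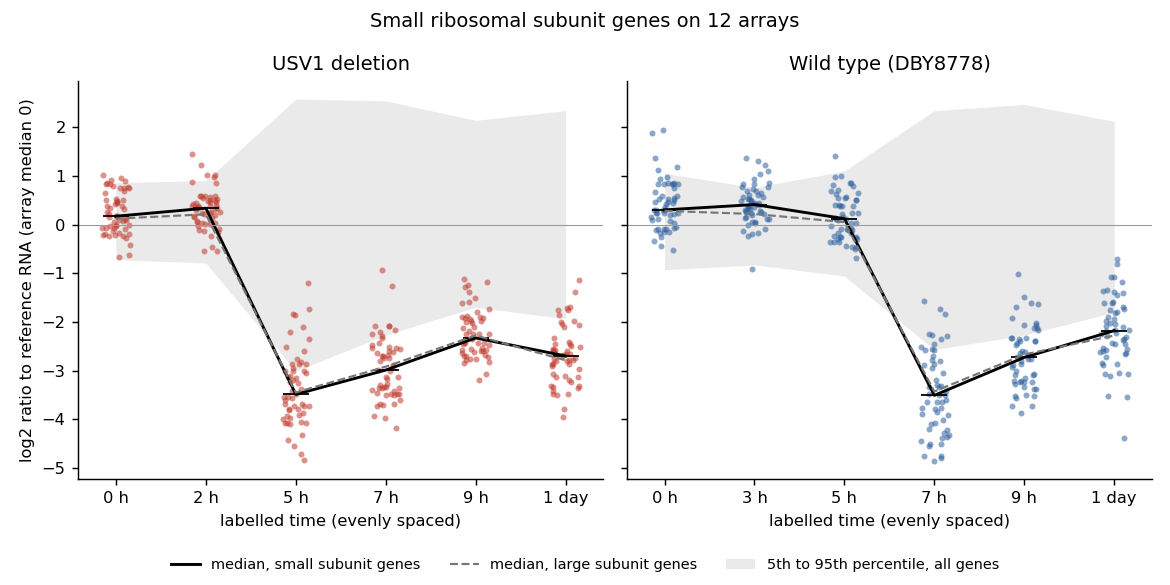
Log2 ratio to the reference RNA (vertical axis, array median 0) of each small subunit gene (1 point per gene) on each array, by labelled time on an evenly spaced axis, with the deletion on the left and wild type on the right. Lines join the medians of small and large subunit genes, and the grey band holds the 5th to 95th percentile of all genes. The median is -3.49 at 5 hours in the deletion, where it is 0.12 in wild type.

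The steps between neighbouring arrays show how sharp the drop was. Between 2 and 5 hours in the deletion, all 54 members with both values became at least 2-fold lower (21.5% of all genes did), with a median change of -3.74 and a range from -4.97 for RPS9B to -1.60 for RPS30A. Between 5 and 7 hours in wild type, all 54 members with both values became at least 2-fold lower (18.2% of all genes), with a median of -3.83 and a range from -4.97 for RPS9B to -1.81 for RPS24B. RPS9B, which encodes a protein that lies near the messenger RNA path and affects the accuracy of decoding, thus had the largest step in each strain. From 3 to 5 hours in wild type 41 of 54 members were lower by any amount (48.3% of all genes), with a median of -0.305 and 1 member, RPS19B, at least 2-fold lower (1.77% of all genes). These are differences of single arrays, with no test.

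Late arrays (7 hours, 9 hours and 1 day) were then tested against early arrays (0 hours and 2 or 3 hours) within each strain, leaving out the 5-hour arrays. All 55 members fell in the deletion, where 19.1% of all 6083 genes tested were called lower, with a median change of -3.12 (limma, adjusted p = 2.72e-06 at the smallest to adjusted p = 0.0341 at the largest, n = 3 late and 2 early arrays). All 55 also fell in wild type, where 19.4% of genes were called lower, with a median change of -3.25 (adjusted p = 7.98e-07 to adjusted p = 0.0265, n = 3 and 2). For every member each late value lay below each early value in both strains, which held for 30.3% of all genes in the deletion and 30.6% in wild type. The median change over all genes tested was 0.07 in the deletion and 0.06 in wild type. The 81 large subunit genes fell without exception as well, with medians of -2.93 in the deletion and -3.10 in wild type. Only RPS30A and RPS27A lost their call when 1 array was left out. RPS30A was not called in the deletion without its own array at 0, 2, 7 or 9 hours (adjusted p = 0.118, adjusted p = 0.161, adjusted p = 0.0639 and adjusted p = 0.0830) or in wild type without that at 0, 3 or 7 hours (adjusted p = 0.0563, adjusted p = 0.188 and adjusted p = 0.0911), and RPS27A was not called in the deletion without the 2-hour array (adjusted p = 0.0586).

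Single-copy members have no paralogue among the small subunit genes, and whether other transcripts bound their spots was not tested. The 8 described here changed by -3.49 to -3.04 in the deletion and by -3.97 to -2.70 in wild type. RPS2 (YGL123W) encodes a protein at the messenger RNA entry channel that takes part in decoding accuracy. Its log2 ratios in the deletion were 0.50, 0.49, -4.09, -3.40, -2.58 and -2.66 from 0 hours to 1 day, against 0.84, 0.26, -0.35, -4.20, -3.24 and -2.72 in wild type. RPS2 was lowest at 5 hours in the deletion and at 7 hours in wild type, and its change from early to late was -3.38 in the deletion and -3.94 in wild type (SE 0.40 each). RPS3 (YNL178W), whose protein also lines the entry channel, read 0.75, 0.36, -2.52, -2.53, -2.25 and -2.68 in the deletion, against 0.46, 0.39, 1.0, -2.88, -2.03 and -1.91 in wild type. It was at its highest in wild type at 5 hours, just before the drop, and changed by -3.04 in the deletion and -2.70 in wild type (SE 0.32 each).

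Like RPS3, the genes RPS15 and RPS20 encode proteins of the head of the subunit. RPS15 (YOL040C), needed for export of the precursor subunit from the nucleus, read 0.08, 0.20, -3.72, -3.36, -2.71 and -2.90 in the deletion, against 0.85, 0.06, -0.51, -4.39, -3.53 and -2.63 in wild type. In wild type it had already passed below the array median at 5 hours, and its changes were -3.13 in the deletion and -3.97 in wild type (SE 0.43 each). RPS20 (YHL015W), whose protein is ubiquitinated when ribosomes collide, read 0.83, 1.45, -2.20, -2.80, -1.28 and -2.96 in the deletion, against 1.13, 1.37, 1.40, -1.74, -1.69 and -1.18 in wild type. RPS20 stood lower in the deletion than in wild type at 7 hours and 1 day and higher at 9 hours, and it changed by -3.49 in the deletion and -2.79 in wild type (SE 0.43 each).

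RPS12 (YOR369C), a protein of the beak of the head, read 0.90, 0.38, -3.00, -2.91, -2.53 and -3.12 in the deletion, against 0.54, 0.45, 0.86, -3.34, -2.36 and -1.75 in wild type. RPS13 (YDR064W), a protein of the body, had no value at 2 hours in the deletion, where it otherwise read 0.79, -2.86, -2.71, -2.18 and -2.76, against 0.83, 1.31, 0.57, -2.27, -2.77 and -2.23 in wild type. RPS12 changed by -3.49 in the deletion and -2.98 in wild type, and RPS13 by -3.34 and -3.49. RPS31 (YLR167W), also of the head, is made as a fusion with ubiquitin, so its transcript supplies both a ribosomal protein and ubiquitin. Its values were 0.15, 0.24, -3.24, -3.30, -2.76 and -3.49 in the deletion, against -0.12, 0.51, 0.37, -3.91, -2.87 and -2.59 in wild type. RPS31 fell with the rest, with changes of -3.38 in the deletion and -3.32 in wild type (SE 0.38 each).

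ASC1 (YMR116C) encodes the yeast counterpart of RACK1, a scaffold on the head of the subunit that links it to signalling and to the handling of stalled ribosomes. It read 0.00, 0.17, -3.14, -3.50, -2.43 and -3.96 in the deletion, against 0.09, 0.28, -0.09, -3.20, -3.00 and -3.55 in wild type. Its lowest value was that of 1 day in each strain. From early to late it changed by -3.38 in the deletion and -3.44 in wild type (SE 0.38 each), within the range of the RPS genes.

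**Figure D2:**
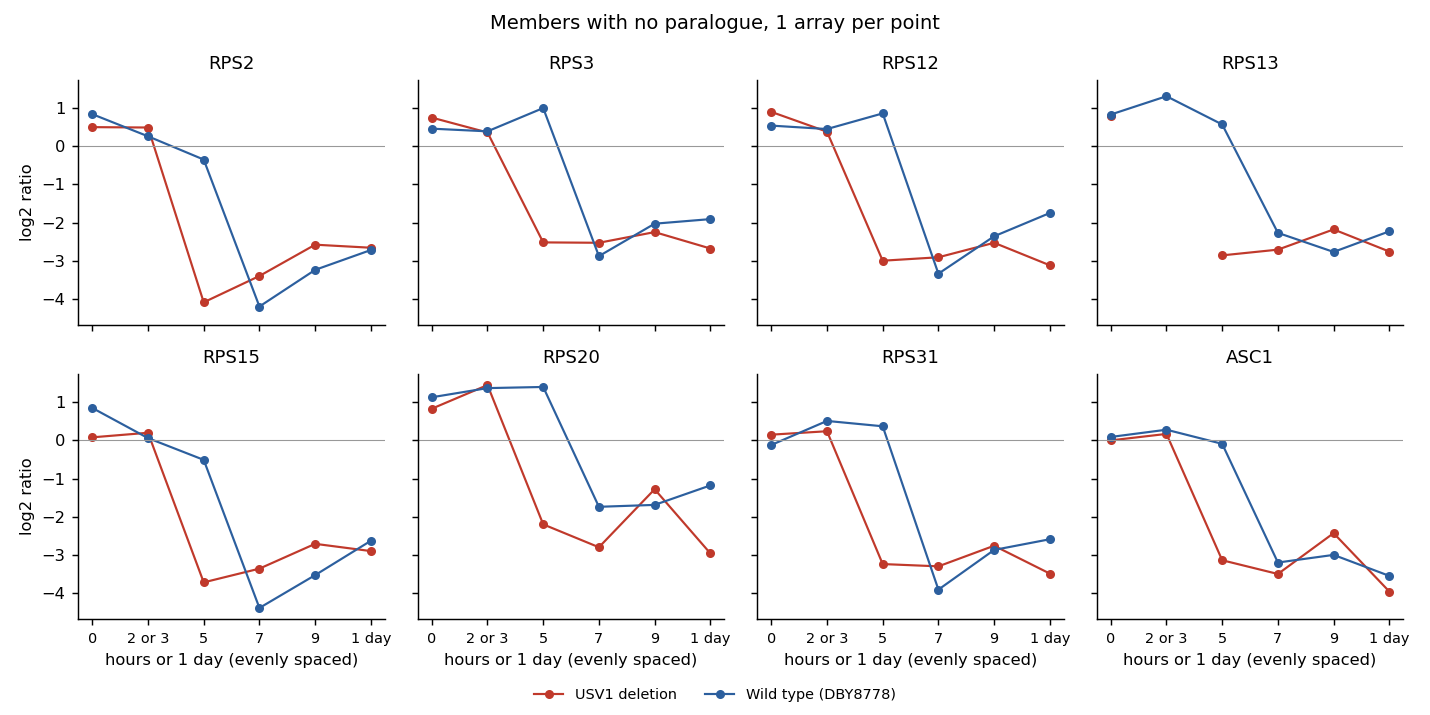
Log2 ratio to the reference RNA (vertical axis) of 7 single-copy RPS genes and ASC1 by labelled time on an evenly spaced axis, with 1 array per point, the deletion in red and wild type in blue. All 8 genes are lower in the deletion than in wild type at 5 hours, and ASC1 is lowest at 1 day in both strains (-3.96 in the deletion and -3.55 in wild type).

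The size of the fall differed between members. RPS9B (YBR189W, -3.68 in the deletion and -4.86 in wild type, SE 0.34 each) and RPS22A (YJL190C, -3.52 and -4.41, SE 0.38 each) fell most in wild type. RPS26B (-3.85 and -3.91, SE 0.42 each), a protein at the messenger RNA exit site, fell most in the deletion. RPS9B, RPS22A and RPS12 were also among the 5 largest falls in the deletion, and RPS0B (-4.21), RPS16B (-4.03) and RPS15 completed the 5 largest in wild type. At the other end stood RPS30A (YLR287C-A, -1.10 and -1.17, SE 0.38 each), RPS30B (-1.65 and -1.94, SE 0.37 each), RPS27A (-1.60 and -2.27, SE 0.34 each) and RPS24A (-2.00 and -2.11, SE 0.36 each). RPS30 is a small basic protein of the body near the decoding centre. RPS14B in the deletion (-2.03) and RPS9A in wild type (-2.33) completed the 5 smallest falls. Across the 55 members the changes in the strains were related (Pearson r = 0.738, Spearman rho = 0.632), as a description over genes, which are not independent and share the reference RNA. Members of the head had medians of -3.13 in the deletion and -3.06 in wild type (n = 21), and those of the body and platform -3.10 and -3.35 (n = 34). Single-copy members had medians of -3.38 and -3.44 (n = 9) and members with a paralogue -2.89 and -3.12 (n = 46). These classes were not tested against each other.

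**Figure D3:**
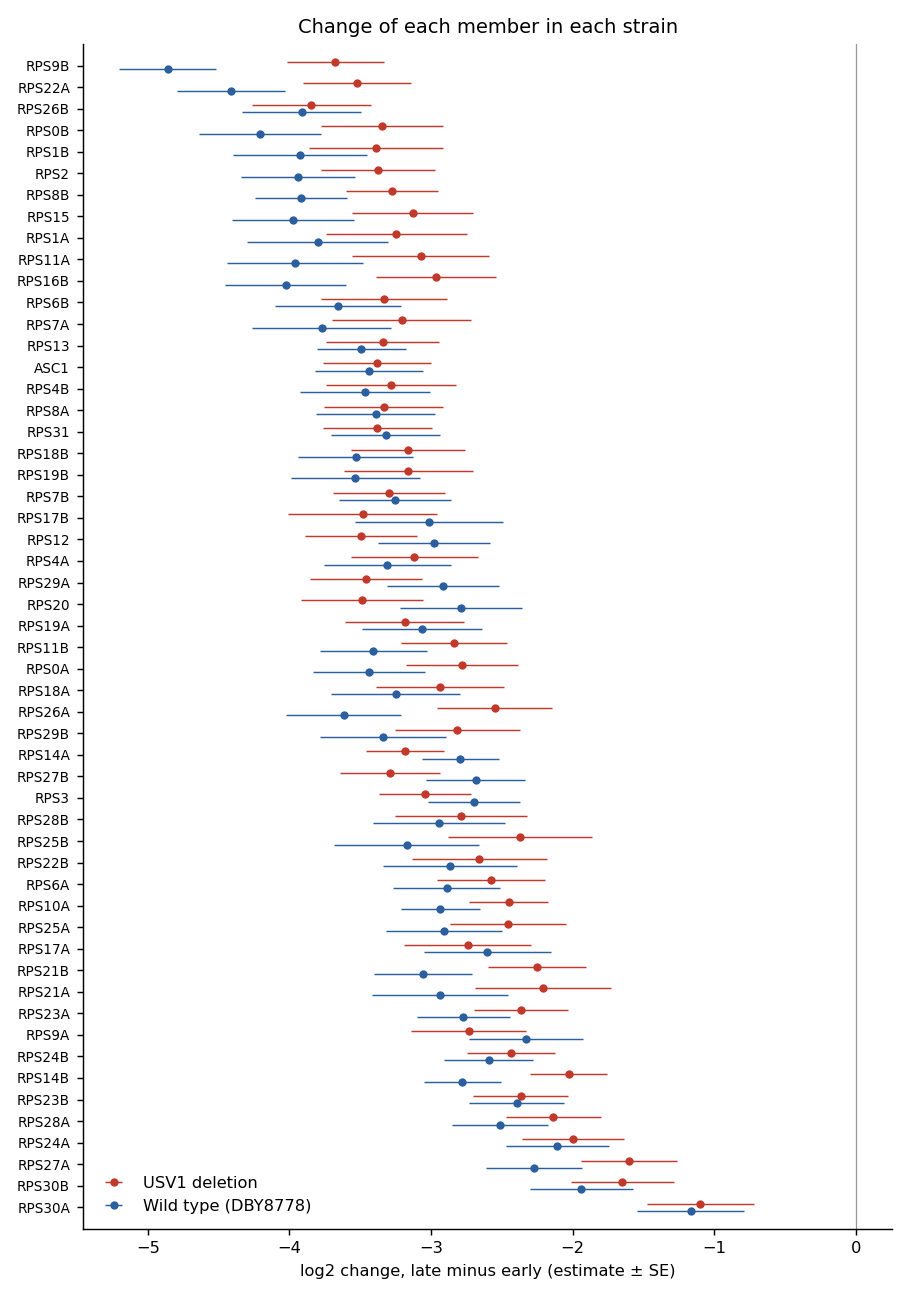
Log2 change from early to late arrays (horizontal axis, estimate ± SE of the moderated fit) of 54 members, with the deletion in red above wild type in blue and members ordered by their mean over strains. All changes are below 0, from -4.86 for RPS9B in wild type to -1.10 for RPS30A in the deletion.

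Single time points were also tested against 0 hours with both strains together. The error of that test is the variation in the strain difference from time to time, which includes the wide gap at 5 hours, and fewer members passed. At 7 hours against 0 hours all 55 estimates were below 0, with a median of -3.63, and 37 members passed, where 5.34% of 5773 genes were called lower (limma, n = 2 arrays per time point). At 9 hours against 0 hours the median was -2.93 and 2 members passed, RPS8B (-3.55, adjusted p = 0.0426) and RPS0A (-3.23, adjusted p = 0.0234), with 1.08% of 5913 genes called lower (limma). At 1 day against 0 hours the median was -2.88 and 2 members passed, ASC1 (-3.80, SE 0.75, adjusted p = 0.0355) and RPS0A (-2.96, SE 0.52, adjusted p = 0.0311), with 1.22% of 5838 genes called lower (limma). At an unadjusted p under 0.05 there were 49 members (13.4% of genes lower). RPS0A lacked the wild-type value of 5 hours, and its SE leaves out the strain difference then. The other estimates at the extremes were RPS9B at -4.26, RPS26B at -3.72 and RPS0B at -3.67, and RPS28A at -1.75, RPS21A at -1.67, RPS30B at -1.40, RPS27A at -1.35 and RPS30A at -0.615. Without the 5-hour arrays 54 of 55 members passed at 1 day (15.6% of genes lower), 55 at 7 hours (20.3%) and 54 at 9 hours (17.2%), the exception at 1 day and 9 hours being RPS30A (adjusted p = 0.251 and adjusted p = 0.0936, limma). No member passed at 1 day without the 7-hour arrays, where 4 of 5845 genes were called lower. The same held without the 1-day arrays at 7 hours (2 of 5782 genes) and 9 hours (11 of 5925). Without the 9-hour arrays 15 members passed at 7 hours (110 of 5777 genes).

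After the drop no member passed the test of 1 day against 7 hours, at either an adjusted or an unadjusted p under 0.05 (limma, 0% of 5774 genes called, 2.36% higher and 2.13% lower at an unadjusted p under 0.05). The estimates were above 0 for 51 of 55 members, with a median of 0.80 and a range from -0.565 to 1.64. They average unlike changes in the strains. From 7 hours to 1 day the family median went from -2.99 to -2.70 in the deletion. In wild type it went from -3.51 to -2.18. Without the 5-hour arrays 0 members again passed, with a smallest adjusted p = 0.0578 (limma, 0.294% of genes called higher and 0.311% lower), and 27 of 55 were higher at an unadjusted p under 0.05, as were 9.27% of genes. Between 9 hours and 1 day 47 of 55 members were lower in the deletion (51.4% of all genes), against 4 of 55 in wild type (48.4%). ASC1, RPS22B and RPS24B, picked out after their values were seen, were lower at 1 day than at 7 hours in both strains. RPS22B read -2.09, -1.39 and -3.13 at 7 hours, 9 hours and 1 day in the deletion, against -2.78, -1.49 and -2.87 in wild type. RPS24B read -2.61, -1.93 and -2.65 in the deletion, against -1.57, -2.06 and -2.17 in wild type. Their estimates of 1 day minus 7 hours were -0.405 for ASC1 (SE 0.75), -0.565 for RPS22B (SE 0.81) and -0.32 for RPS24B (SE 0.67), each smaller than its SE. The spread of all genes differed between these arrays as well, with SDs of 1.43, 1.17 and 1.31 on the deletion arrays of 7 hours, 9 hours and 1 day, against 1.46, 1.41 and 1.21 on those of wild type. After quantile normalization, which gives all arrays the same spread, the median of 1 day minus 7 hours was 0.17, and 38 of 55 estimates were above 0.

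The strains were then compared at each shared time. At 5 hours all 54 members with both values were at least 2-fold lower in the deletion (20% of all genes were), by a median of -3.61, from -4.84 for RPS17B to -1.44 for RPS24A. At 0 hours the median difference was -0.06, with 32 members lower in the deletion (47.5% of all genes) and 22 higher (51.7%). At 7 hours the deletion was higher for 47 of 55 members (56% of all genes), with a median of 0.57, and at 9 hours for 48 (53.6%), with a median of 0.54. At 1 day it was lower for 46 of 55 (47.5%), with a median of -0.48. The drop lay between earlier arrays in the deletion than in wild type. From 7 hours on, a strain difference therefore cannot be told apart from the time since the drop. RPS20 had the lowest difference at 7 hours (-1.06) and at 1 day (-1.78), and RPS9B the highest at 1 day (0.90). A total of 33 members was higher in the deletion at 7 and 9 hours and lower at 1 day, beside 40 of 81 large subunit genes and 13.6% of all genes, a pattern noticed after the values were seen. These are differences of single arrays, with no test.

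**Figure D4:**
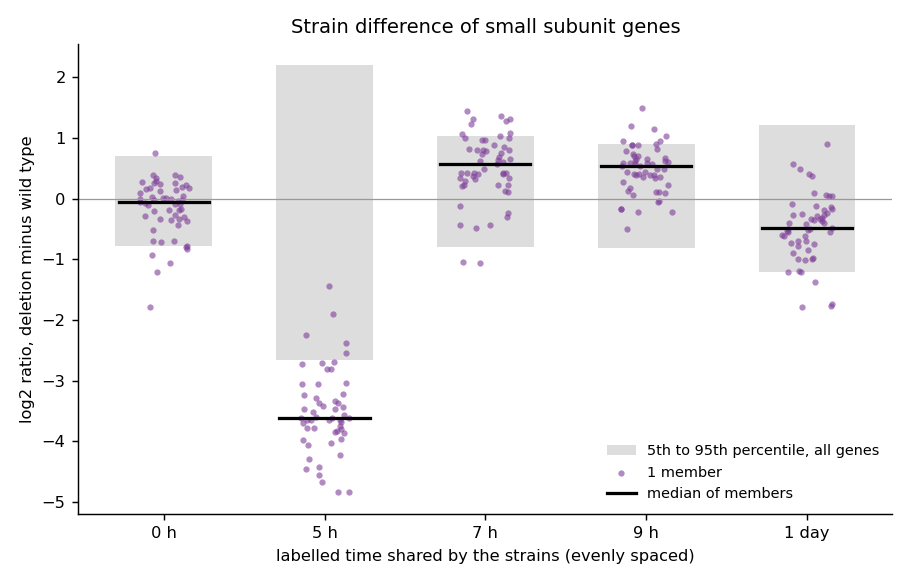
Difference in log2 ratio, deletion minus wild type (vertical axis), of each member at the 5 shared time points, with black bars at the median and grey bars from the 5th to the 95th percentile of all genes. The median is -3.61 at 5 hours and lies between -0.48 and 0.57 at the other times.

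Averaged over the shared times, no member passed the test between the strains. Estimates were below 0 for 54 of 55 members, with a median of -0.60, but 0 of 55 passed and 2 members, RPS20 and RPS24B, had an unadjusted p under 0.05 (limma, 0% of 6062 genes called, 1.58% lower and 2.71% higher at an unadjusted p under 0.05). The lowest estimates were RPS20 at -1.27 (SE 0.52), RPS27B at -1.18 (SE 0.60), RPS17B at -1.13 (SE 0.73), RPS24B at -1.06 (SE 0.42) and RPS9A at -1.04 (SE 0.55), each at adjusted p = 0.814 (limma). At the top were RPS11B and RPS11A at -0.31, RPS24A at -0.28, RPS7B at -0.23 and RPS0A at 0.47, whose estimate leaves out 5 hours. Without the 5-hour arrays the median was 0.12 and 37 of 55 estimates were above 0, again with 0 of 55 passed. Over 7 hours, 9 hours and 1 day alone 0 of 55 passed (0.0328% of genes were called lower), and the estimate of RPS9B was 0.97 (SE 0.29, adjusted p = 0.347, limma). RPS20 went the other way, at -0.81 (SE 0.37, adjusted p = 0.447, limma). At an unadjusted p under 0.05, 3 members were higher and 1 lower, beside 397 and 279 of 6091 genes.

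The fall from early to late was also compared between the strains directly. The difference, deletion minus wild type, had a median of 0.32 over the 55 members, with 43 above 0, which means a smaller fall in the deletion. No member passed, and 1 had an unadjusted p under 0.05 (limma, 0% of 6083 genes called either way, 1.99% higher and 2.1% lower at an unadjusted p under 0.05). That member was RPS9B, at 1.18 (SE 0.48, unadjusted p = 0.0279, adjusted p = 0.960), followed by RPS26A at 1.07 (SE 0.57). RPS20 at -0.70 (SE 0.61) and RPS27B at -0.60 (SE 0.50) lay at the other end. The direction of the median depended on the 7-hour wild-type array. Without that array the median was -0.023, with 27 of 55 members above 0 and 28 below. The late class holds the lowest wild-type array, that of 7 hours (family median -3.51). It leaves out the lowest deletion array, that of 5 hours (-3.49). With these errors a difference of 1 or more on the log2 scale could be present for single members and not be called. In simulated data 1 of 50 genes shifted by 1 was called, 15 of 50 shifted by 2 and 28 of 50 shifted by 3. The simulated scatter was that of the strain difference over the shared times, 5 hours included. The early-to-late fit leaves out the 5-hour arrays, so these counts do not measure how many such differences it would call in the real data.

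Paralogous copies encode the same or nearly the same protein from separate promoters, and 22 such pairs were measured. They are compared here by their change from early to late. Most pairs named first were those furthest apart or closest in mean level over the arrays, not in change. RPS4A and RPS4B changed alike to within 0.165 in the deletion and 0.16 in wild type, and RPS1A and RPS1B to within 0.145 and 0.125. RPS22A changed by more than RPS22B in both strains (-3.52 against -2.66 in the deletion and -4.41 against -2.87 in wild type). RPS6B, a copy of the protein that is phosphorylated downstream of TOR, changed by more than RPS6A (-3.33 against -2.58 in the deletion and -3.66 against -2.89 in wild type). RPS9B changed by more than RPS9A, by 0.94 in the deletion and 2.53 in wild type. For RPS29 the order of the copies was not the same, with RPS29A at -3.46 and RPS29B at -2.81 in the deletion, against -2.92 and -3.34 in wild type. RPS26A and RPS26B stood at -2.55 and -3.85 in the deletion, against -3.62 and -3.91 in wild type. By change, RPS27 had the widest gap in the deletion, with RPS27A at -1.60 and RPS27B at -3.29, against -2.27 and -2.685 in wild type. RPS14A and RPS14B stood at -3.18 and -2.03 in the deletion, against -2.79 and -2.78 in wild type. In 16 of 22 pairs the same copy changed by more in both strains, and in 8 pairs the copies stayed within 0.5 of each other in both. Differences between copies were not tested.

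**Figure D5:**
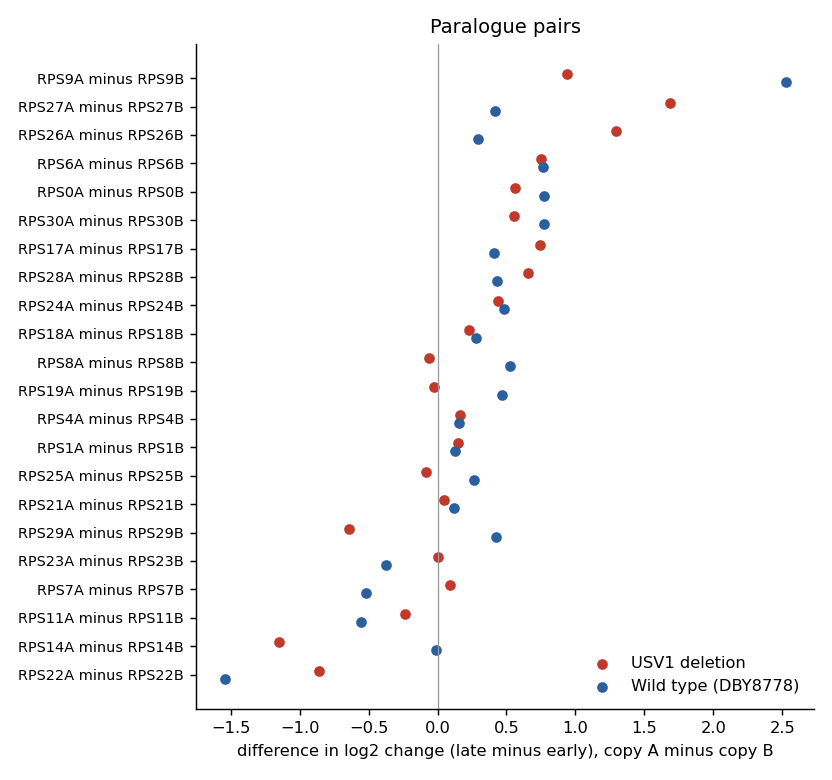
Difference in the early-to-late log2 change between the copies of each paralogue pair, copy A minus copy B (horizontal axis), for the 22 measured pairs, with the deletion in red above wild type in blue. Points right of 0 mean a smaller fall of copy A; RPS9 reaches 2.53 in wild type and RPS22 -1.55.

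Other genes of the small subunit pathway were followed by lists, read beside 19.1% of genes called lower and 19.9% called higher in the deletion, and 19.4% and 17.9% in wild type. All 16 initiation factors that act on the small subunit were called lower in the deletion and 14 of 16 in wild type. Estimates were below 0 for all 16 in each strain, with medians of -1.79 and -1.80. Among them TIF4632, an eIF4G, changed by -2.25 in the deletion and -2.45 in wild type, and PRT1, a subunit of eIF3, by -2.08 and -2.49. Of 26 measured assembly factors 18 were called lower in the deletion and 14 in wild type. Estimates were below 0 for 25 of 26 in each strain, with medians of -1.31 and -1.14. Among those called in each strain were LCP5 (-3.02 and -1.99) and the helicase PRP43 (-2.27 and -2.53). The median falls of initiation and assembly factors were smaller than those of the small subunit proteins, a difference that was not tested.

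Among 17 regulators of ribosomal protein genes no common direction was seen. In the deletion 5 were called higher and 3 lower, and in wild type 3 higher and 2 lower. The largest changes at 1 day against 0 hours (3.1% of genes called higher) were the rises of CRF1, a corepressor of ribosomal protein genes (2.66, SE 0.42, adjusted p = 0.0209), and LST8, a subunit of the TOR complexes (2.05, SE 0.41, adjusted p = 0.0356, limma). From early to late CRF1 rose by 2.21 in the deletion and 1.77 in wild type (SE 0.43 each), and LST8 by 1.75 and 1.36 (SE 0.37 each). Of 8 measured factors that preserve ribosomes or act on collided ones, 4 were called lower and 1 higher in the deletion. In wild type 3 were called lower, and estimates were below 0 for 5 of 8 in each strain. STM1, which binds idle ribosomes, changed by -2.45 in the deletion and -3.06 in wild type (SE 0.39 each), and HEL2, the ligase that ubiquitinates RPS20, by -1.05 and -1.10 (SE 0.30 each).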

How the data were processed

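The authors' deposited table holds 1 log2 ratio per gene and array. Its base was assumed to be 2, and scanner, background correction, spot filter, normalization and ratio direction were not given in the sources used here. Each of the 12 arrays held values for 5931 to 6085 genes, and deposited array medians lay between -0.11 and 0.03. Depth has no meaning for arrays, and their number limits the precision. The RefSeq table of assembly R64 named all 57 members.

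Arrays were centred to a median of 0 and fitted with limma 3.58.1 (R 4.3.3) over all genes, with Benjamini-Hochberg adjustment and calls at 0.05. Time effects and the strain effect used the 10 arrays at shared times, with strain and time point as factors, and at least 4 of 5 values per strain. Late against early used 4 means, of strain by early or late. Members, lists, contrasts and time classes were chosen with earlier results of these data known. Named genes are the single-copy members, the extremes of each contrast, paralogue pairs and the 2 list members with the largest change at 1 day. Most of the pairs were picked by their mean difference in level over arrays. The values of 1 member are not reported here by name. The fits were tested on simulated data. Alternatives were values as deposited, quantile normalization, complete genes, and arrays or time points left out.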

Additional observations from a re-analysis of the deposited data

Results flagged for a closer look

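The members moved in opposite directions in the strains between 9 hours and 1 day. Their median change was -0.41 in the deletion and 0.55 in wild type, where 47 and 4 of 55 members were lower at 1 day. Between 5 and 7 hours the median change was 0.38 in the deletion and -3.83 in wild type, the deletion having dropped before 5 hours. Neither difference was tested, since each time point had 1 array per strain. Between 9 hours and 1 day the SD over all genes also moved in opposite directions, at 1.31 at 1 day and 1.17 at 9 hours in the deletion, against 1.21 and 1.41 in wild type. After quantile normalization, an alternative added after seeing the data, the medians of 1 day minus 9 hours were -0.028 in the deletion and 0.109 in wild type. The part of array spread in the difference was not tested further.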

How the results depend on the processing

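Every member tested kept an early-to-late change below 0 in both strains under each alternative run, with 53 to 55 called. The alternative of complete genes tested 53 members, all called, and that without the 0-hour deletion array tested 54. The strain effect, the strain difference of that change and 1 day against 7 hours had 0 members called under every alternative. The time effects depended on the settings. At 1 day against 0 hours the 2 calls became 7 with values as deposited, 50 after quantile normalization and 1 among genes with all 12 values, and ranged from 0 to 54 with 1 time point left out. The number of all genes called lower moved too, from 71 of 5838 to 123 as deposited and 730 after quantile normalization. It was 64 of 5362 among complete genes, and ranged from 4 to 914 with 1 time point left out. At 9 hours the 2 calls became 51 after quantile normalization and 1 among complete genes, and ranged from 0 to 54. Of all genes, 64 of 5913 were called lower then, against 737 after quantile normalization and 55 of 5362 complete genes. The range with a time point left out was 11 to 1020 genes. At 7 hours the 37 calls ranged from 0 to 55 with a time point left out, and the 308 of 5773 genes called lower from 2 to 1175. The time points in a fit set its residual spread, and the strain difference at 5 hours is the largest. The strain effect changed sign, from below to above 0, for 36 of 55 members without the 5-hour arrays, for 38 over the 3 late times alone and for RPS7B after quantile normalization, and for 0 under the other alternatives. Among the named members at the upper end of that effect were RPS11B (-0.6775 to 0.535 with 1 time point left out, and 0.66 over 7 hours, 9 hours and 1 day), RPS11A (-0.7075 to 0.56, and 0.67), RPS24A (-0.575 to 0.0075, and 0.127) and RPS7B (-0.475 to 0.388, 0.267, and 0.154 after quantile normalization), where the higher end of each range leaves out 5 hours. After quantile normalization RPS30A lost its early-to-late call in both strains (adjusted p = 0.0840 in the deletion and adjusted p = 0.141 in wild type) and RPS27A in the deletion (adjusted p = 0.0943), all by limma. The strain effect sets the strains against each other within each time point, and without time point in the fit 0 members were called as well. Leaving out an early array left 1 array in that class, which was assumed to vary like the other classes.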
